A study of Homo sapiens with 16 samples.

Results

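The regions described here are 28361 peaks of the U87-R m6A-eCLIP peak list that hold no called base in any of the 3 U87-R libraries on the same strand, below called empty peaks. They are 29.4% of the 96528 peaks in that list, and the other 68167 peaks, each with at least 1 called base, are called base-holding peaks. They were chosen by the called bases of the U87-R libraries, so the absence of such bases is the definition and not a result. U87-R is a temozolomide (TMZ) resistant derivative of U87 MG (U87), an established human glioma cell line.

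The libraries compared were 2 of U87-R given 50 µM STM2457 (which blocks the methyltransferase METTL3) for 96 hours, and 3 of U87 under a DMSO control label. The 3 untreated U87-R libraries, which chose the peaks, also carried a DMSO control label, and all U87-R cells were grown with 50 µM TMZ, which the U87 medium lacked. STM2457 libraries and U87 libraries therefore differ in drug, medium and resistance, which cannot be told apart. Nothing in the labels says that replicates came from separate cultures, so the spread between libraries may be technical.

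N6-methyladenosine (m6A) is a methyl mark on adenosines of messenger RNA, written mostly by a complex around METTL3 within short motifs that often read GGAC, and read by proteins such as the YTHDF family. In m6A-eCLIP an antibody against the mark is crosslinked to RNA fragments. A peak is a stretch where fragments pile up, and a called base is a position where the crosslink left a trace, so a peak and a base are separate readouts of the same library.

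The deposited lists hold scores and no read counts, so depth is unknown. The STM2457 libraries held 105900 and 110875 called bases and the U87 libraries 150135 to 182556, of which 52.0 to 53.4% and 59.3 to 63.1% lay in U87-R peaks. Input libraries were not analysed here, so methylation and RNA abundance cannot be told apart. Of 7 genes chosen as markers of a mesenchymal glioma line, 5 had a U87-R peak (VIM, NES, CD44, TNC and EGFR; FN1 and SOX2 had none). Of 19 markers of blood, neuronal, liver, epithelial and endothelial cells only CSF1R had one.

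Sequence could be read for 498 empty peaks and 1312 base-holding peaks that lay wholly inside the RefSeq windows around gene starts (GRCh38.p14, whose coordinates are those of hg38). These windows run from 250 bases before to 50 bases after an annotated start. Of the 498 empty peaks 313 began past that start, and of the 1312 base-holding peaks 591 did. The first feature to see is the letter A. Shown first are 5 empty peaks without any A, the longest among peaks of at most 30 bases that begin past the annotated start, in the genes for VKORC1 (the vitamin K epoxide reductase), TMEM44 (a membrane protein), NQO2 (a quinone reductase), PMPCB (a mitochondrial processing peptidase subunit) and SLC10A3 (a solute carrier family member).
VKORC1 (chr16:31094768-31094788, minus strand): ccggcccctgctccgtggctg
TMEM44 (chr3:194633393-194633412, minus strand): tccccggcgccttcgccgcc
NQO2 (chr6:2999922-2999939, plus strand): cggtccgtggtccccggg
PMPCB (chr7:103297462-103297478, plus strand): ggcggctgcggcggctc
SLC10A3 (chrX:154490596-154490612, minus strand): tgcgcggtggctgtggc
The next lines are empty peaks that do contain the letters GGAC, in capitals, and still had no called base in U87-R. They lie at the starts of RUNX1 (a transcription factor), SIN3A (a corepressor scaffold), NCLN (nicalin, a membrane protein of the endoplasmic reticulum) and GPNMB (a membrane glycoprotein).
RUNX1 (chr21:34888656-34888683, minus strand): ccagcgggcgcgggcgGGACgggcgccc
SIN3A (chr15:75455791-75455810, minus strand): GGACtcctcgcctggctcgg
NCLN (chr19:3185931-3185936, plus strand): GGACcc
GPNMB (chr7:23246781-23246810, plus strand): acactgttgctcttggtGGACgggcccaga
The last lines are base-holding peaks for contrast, with capitals at the bases called in all 3 U87-R libraries. They were picked for the highest summed U87-R scores among short peaks past the annotated start. All begin at base 2 to 4 counted from that start, so they need not be typical of base-holding peaks. They lie at the starts of H3-3A (a replacement histone), PARK7 (a redox sensor protein), MRFAP1 (a small nuclear protein) and NANS (a sialic acid synthase).
H3-3A (chr1:226062719-226062734, plus strand): tCAATTGtgttcgcag
PARK7 (chr1:7961713-7961727, plus strand): gttCATTTTcagcct
MRFAP1 (chr4:6640686-6640709, plus strand): TTTTgttcgccgttactctgcgcg
NANS (chr9:98056733-98056753, plus strand): CAgAaCAgagtagaggcggcg

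In these windows 121 of 498 empty peaks (24.3%) contained no A, against 26 of 1312 base-holding peaks (1.98%). Empty peaks are shorter, so the shares were also read at matched lengths. Empty peaks also began past the annotated start more often. Position was not matched, for the letter A or for the motif below, so these shares compare peaks at different positions. Among peaks of 1 to 10 bases, 36.4% of empty peaks and 6.11% of base-holding peaks had no A. Among those of 11 to 20 bases the shares were 26.2% and 3.32%. A made up 16.2% of the bases of empty peaks and 19.5% of those of base-holding peaks. Peaks were sorted by called bases, many of which fall on an A. These differences in A therefore follow in part from the definition and are given as description only. The letters GGAC on the transcribed strand, the only motif searched, were found in 26 empty peaks (5.22%) and 202 base-holding peaks (15.4%). By length these shares were 0.810% and 1.75% at 1 to 10 bases and 4.67% and 5.65% at 11 to 20 bases. They were 11.1% and 15.2% at 21 to 40 bases and 17.8% and 32.2% at 41 bases or more. GGAC contains an A, so these differences also follow in part from the definition and are description only. The other strand was not searched. Of the start windows used, which are longer than these peaks, 66.3% hold GGAC on that strand.

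Called bases in these windows did not all fall on an A either. In the U87-R libraries 46.8%, 47.8% and 47.1% of them did, a mean of 47.2% ± 0.490 (SD, n = 3 libraries). Of the remaining called bases, 34.1% ± 0.751 (SD, n = 3) lay right after an A. These windows hold only gene starts, so their composition need not be that of the other empty peaks.

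Empty peaks were short. Their median length was 20 bases (quartiles 11 and 37, range 1 to 327), against 49 bases (quartiles 25 and 76, range 2 to 338) for base-holding peaks. Peaks of at most 10 bases were 24.6% of the empty peaks and 5.89% of the base-holding peaks. Peaks over 100 bases numbered 472 (1.66%) among the empty ones, against 8304 (12.2%) among the base-holding ones. Read the other way, 75.6% of all U87-R peaks of 1 to 5 bases were empty, 44.3% of those of 11 to 20 bases, 23.0% of those of 41 to 60 bases and 5.38% of those over 100 bases.

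**Figure D1:**
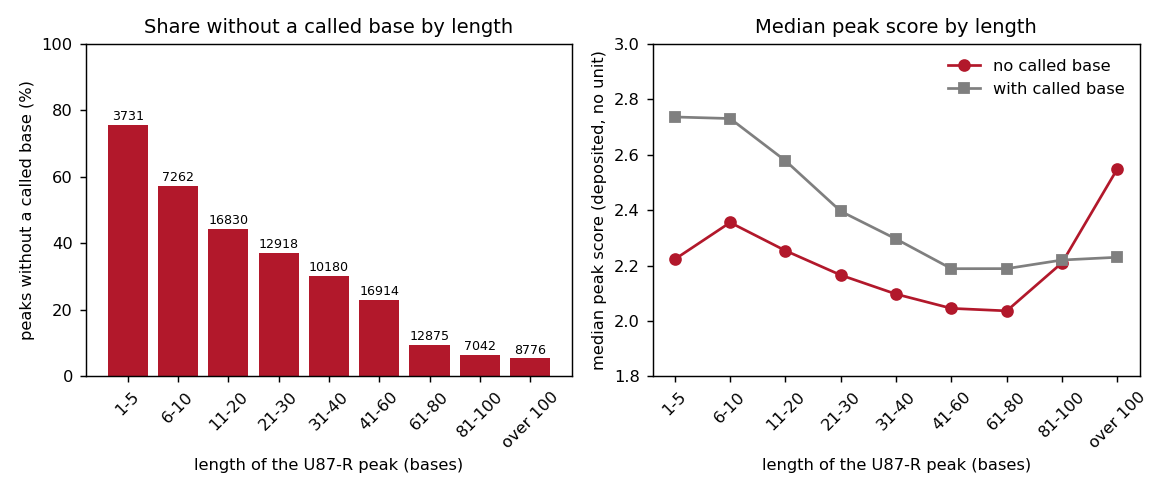
Left, share of U87-R peaks without a called base (%) by peak length in bases, with the number of peaks in each class above its bar. Right, median deposited peak score of empty and base-holding peaks by length. The share fell from class to class, between 75.6% at 1 to 5 bases and 5.38% over 100 bases, and the empty peaks had the lower median score in every class up to 100 bases.

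The deposited peak score of empty peaks had a median of 2.19 (quartiles 1.66 and 2.82), against 2.30 (1.76 and 2.90) for base-holding peaks. The score has no stated meaning, and is used here only to rank peaks within the U87-R list. Among peaks of 6 to 10 bases the medians were 2.36 for empty and 2.73 for base-holding peaks. Over 100 bases the order turned, with 2.55 for empty and 2.23 for base-holding peaks. Of the lowest 10% of scores 34.5% were empty and of the highest 10% 28.0%. A peak passed in all 3 U87-R libraries in 82.8% of the empty and 84.7% of the base-holding cases. These are descriptions of the libraries that chose the peaks, without a test.

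At the edge of the definition, 8153 base-holding peaks rested on 1 called base in 1 library, with a median length of 41 bases and a median score of 2.21. On the other side, 17476 empty peaks had a U87-R called base at most 10 bases away, with a median length of 19 bases and a median score of 2.28.

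Most empty peaks were tiles of larger regions. Many peaks of the list touch another, and with touching peaks joined they form 30933 runs. A run shared with base-holding peaks contained 25576 empty peaks (90.2%). The median distance from an empty peak to the nearest U87-R called base of its strand was 7 bases. Such a base lay within 10 bases of 61.6% and within 50 bases of 95.2% of empty peaks, while 259 had none within 1000 bases. In runs of at least 3 tiles, 18.3% of the tiles at the 5′ end were empty, against 37.2% of inner tiles and 31.6% of tiles at the 3′ end. Length was not matched here. Median lengths of empty and base-holding tiles were 30 and 54 bases at the 5′ end, 17 and 29 for inner tiles and 30 and 68 at the 3′ end.

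The remaining 2785 empty peaks (9.82%) formed 2409 runs without any called base, 7.79% of all runs, and 2094 of these runs were 1 peak. Their median run length was 30 bases, against 124 for runs with a called base. These peaks overlapped an STM2457 peak in 36.2% and a U87 peak in 56.6% of cases, against 67.9% and 95.3% for empty peaks in runs with base-holding peaks. They lay in no assigned gene in 9.19% of cases, against 2.56%. Long noncoding genes held 6.79% of those given to 1 gene, against 2.03%. They had passed in all 3 U87-R libraries in 47.5% of cases, against 86.7%. Base-holding peaks alone in their run, of which there were 10755, gave values on the same side: 33.2% overlapped an STM2457 peak and 71.5% a U87 peak, 7.69% lay in no assigned gene, 7.03% of those given to 1 gene lay in long noncoding genes, and 58.2% had passed in all 3 U87-R libraries. The direction of these values is therefore not particular to empty peaks. The 2094 empty peaks alone in their run gave 26.8%, 52.6%, 10.7%, 7.81% and 42.4% for these measures, in the same order. Their overlap with both lists and their share passed in all 3 libraries were lower than in base-holding peaks alone in their run. Median lengths of 27 and 82 bases were not matched.

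Of all empty peaks, 18365 (64.8%, Wilson 95% interval 64.2 to 65.3) shared 1 base or more of their strand with an STM2457 peak, and 25951 (91.5%, 91.2 to 91.8) overlapped a U87 peak. Of base-holding peaks 58.5% overlapped an STM2457 peak and 92.1% a U87 peak. The intervals cover counting error alone, peaks of 1 run are not independent, and each group has 1 joined list, so these overlaps have no replicate error. Both lists overlapped 17445 empty peaks, the STM2457 list alone 920, the U87 list alone 8506, and neither 1490. A called base of the reproducible site lists was rare inside them, in 5 empty peaks for STM2457 and in 30 for U87.

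The higher share of empty peaks found again in STM2457 went with their length. In each length class up to 100 bases the shares of empty and base-holding peaks lay within a few points of each other, for example 66.5% and 65.9% at 11 to 20 bases and 54.7% and 56.0% at 61 to 80 bases. Over 100 bases the order was the opposite, with 26.7% of empty and 47.8% of base-holding peaks overlapping an STM2457 peak, and 61.2% and 86.3% overlapping a U87 peak. By score, 36.6% of empty and 26.2% of base-holding peaks overlapped an STM2457 peak in the lowest 10% of scores, 45.6% and 32.3% between ranks of 10 and 25%, 59.4% and 47.9% between 25 and 50%, and 88.9% and 88.6% in the highest 10%.

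**Figure D2:**
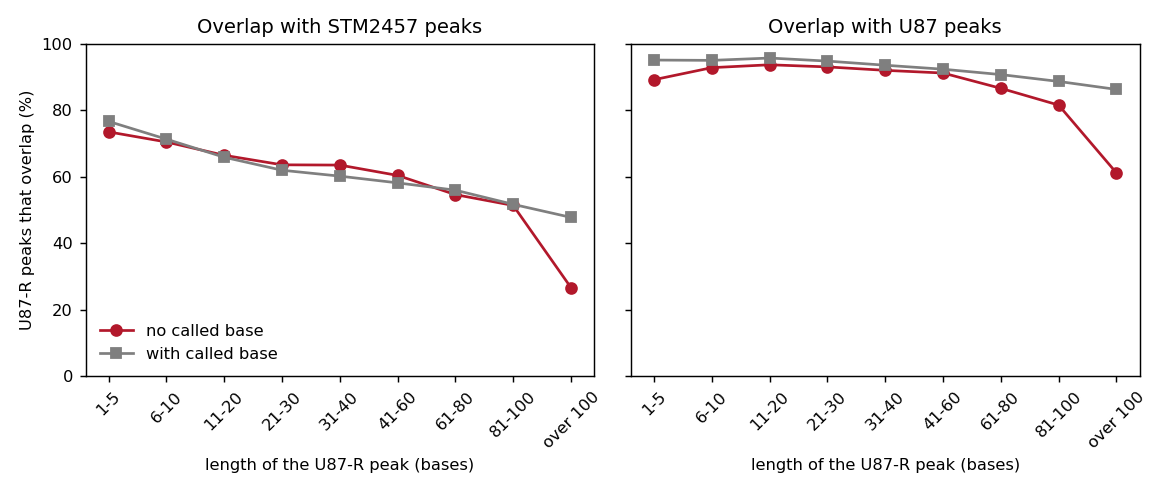
Share of U87-R peaks (%) that overlap a peak of the STM2457 list (left) or of the U87 list (right) by at least 1 base, by peak length in bases, for empty and base-holding peaks. In the STM2457 panel the lines run close together up to 100 bases and part above it, where 26.7% of empty and 47.8% of base-holding peaks overlapped an STM2457 peak.

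The 472 empty peaks over 100 bases had passed in all 3 U87-R libraries in 43.2% of cases, lay in no assigned gene in 14.4% and in long noncoding genes in 18.2% of those given to 1 gene. Base-holding peaks over 100 bases gave 77.8%, 6.58% and 7.49% for the same measures. The 166 long empty peaks that touch a base-holding peak lay close to base-holding peaks of this length in overlap, with 47.0% overlapping an STM2457 peak and 86.7% a U87 peak, and in long noncoding genes, with 8.44%; they had passed in all 3 U87-R libraries in 60.2% of cases. The longest empty peaks included those in ZBTB37 (a zinc finger gene, 291 bases), ELF3-AS1 (a long noncoding gene, 272 bases), KRABD2 (270 bases) and LRFN5 (a synaptic adhesion gene, 269 bases). Among these 4 peaks the one in KRABD2 overlapped an STM2457 peak and the others did not.

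Called bases of the libraries that had no part in the choice were then counted inside the empty peaks. The STM2457 libraries had a called base in 3.79% and 3.98% of them, and the U87 libraries in 5.54%, 6.54% and 6.89%. Every STM2457 library lay below every U87 library. The means were 3.89% ± 0.137 (SD, n = 2) and 6.33% ± 0.703 (SD, n = 3), a difference of -2.44 points with an exact two-sided permutation p of 0.1, the smallest that 2 against 3 libraries allow. Counting only bases with a score of at least 10 ended this order, with 0.751% and 0.843% in STM2457 libraries and 0.547%, 0.797% and 0.917% in U87 libraries (difference 0.0435 points, exact permutation p = 0.9). The total number of called bases per library was lower with STM2457 as well, and its part in the difference was not tested.

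Base-holding peaks showed the same ratio of STM2457 to U87. A called base was found in 47.9% and 50.0% of them in STM2457 libraries and in 77.7%, 80.1% and 81.5% in U87 libraries. The ratio of the mean shares was 0.615 for empty and 0.614 for base-holding peaks. Across these 5 libraries the share of empty peaks minus that of base-holding peaks was -62.1 ± 15.6 points (SD, n = 5), negative in 5 of 5 libraries. It was -44.1 and -46.0 points in STM2457 libraries and -72.1, -73.6 and -74.6 in U87 libraries, so the SD mostly spans the groups. Because called bases of U87-R sorted the peaks, a negative sign follows from that choice wherever bases recur. The exact two-sided sign-flip permutation test gave the smallest p that 5 libraries allow, which is above 0.05. With base-holding peaks weighted to the lengths of the empty ones the difference was -64.3 points.

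Of the empty peaks, 23258 (82.0%) had no called base in any of these 5 libraries either. A base was called in both STM2457 libraries in 353 empty peaks and in all 3 U87 libraries in 221, and in all 5 libraries in 23. Both STM2457 libraries and no U87 library called a base in 178, and all 3 U87 libraries and no STM2457 library in 150. Among empty peaks with a base, the median summed score was 3.50 and 3.62 in STM2457 libraries and 2.73, 3.18 and 3.11 in U87 libraries.

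**Figure D3:**
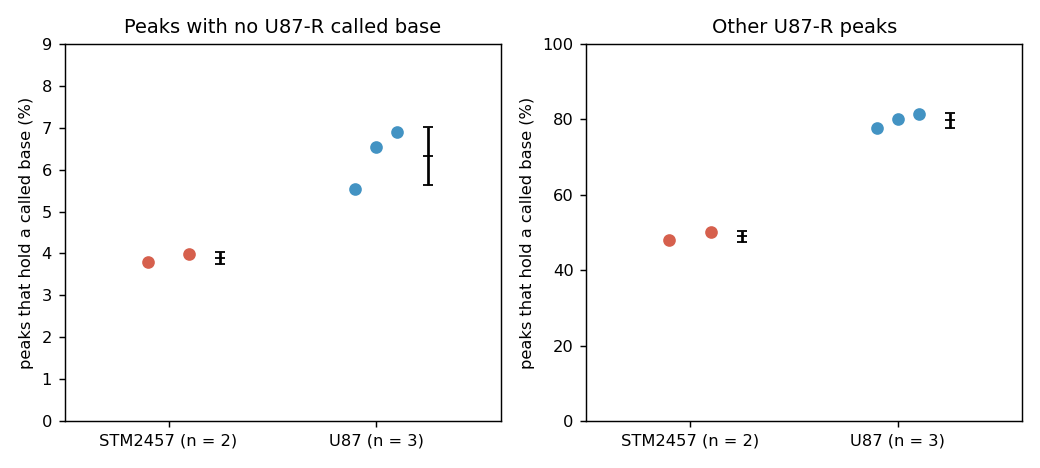
Share of U87-R peaks that hold a called base (%) in each STM2457 and U87 library, for empty peaks (left) and base-holding peaks (right, other scale). Points are libraries and the bars to their right give mean ± SD (n = 2 and n = 3); both STM2457 libraries lie below the 3 U87 libraries in each panel.

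Of the empty peaks, 26968 (95.1%) lay in 1 gene, 482 in several and 911 in none that had been given their strand. The 1-gene peaks fell in 6005 of the 9144 genes with a U87-R peak. They lay within 50 bases of the annotated 5′ end in 1.63% of cases, against 2.71% of base-holding peaks, and within 200 bases in 5.50%, against 4.54%. Within 500 bases of the 3′ end lay 8.54% and 8.47%. Long noncoding genes held 2.47% of the empty and 3.68% of the base-holding peaks. In 155 genes every peak was empty, and 127 of these had 1 peak.

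Among 3197 genes with at least 10 peaks, the share of empty peaks had a median of 28.6% (lower quartile 19.4%, highest 84.6%). No peak was empty in 82 of these genes, and over 50% were in 275. The share followed the length of a gene's tiles. In genes with a median peak length of up to 22 bases the median share was 46.7%, and in genes with one above 53 bases it was 14.3%.

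Among genes by number of empty peaks, VEGFA, the growth factor of blood vessels, led with 84 empty of 113 peaks (74.3%). COL6A3, a chain of collagen VI, followed with 83 of 134, and LRRC15, a leucine-rich repeat membrane protein, with 73 of 118. NFE2L1, a transcription factor that drives proteasome genes, had 66 of 100. TNC, the matrix protein tenascin C, had 65 of 95, and AHNAK, a very large scaffold protein, 65 of 136. MAP1A, which binds microtubules, had 63 of 124, ITGA3, a laminin-binding integrin chain, 62 of 84, FAT1, a giant cadherin, 60 of 161, and PLEC, the cytolinker plectin, 49 of 101. In each of these 10 genes the median length of the empty peaks was 6 to 18 bases.

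The empty peaks of these genes were found again in U87 and less evenly in STM2457. All 84 of VEGFA overlapped a U87 peak and 55 an STM2457 peak. In TNC 60 of 65 and in ITGA3 55 of 62 overlapped an STM2457 peak, whereas in MAP1A 33 of 63 did. Base-holding peaks overlapped one in 17 of 29 cases in VEGFA, 27 of 30 in TNC, 20 of 22 in ITGA3 and 38 of 61 in MAP1A. The differences between these genes were therefore not particular to their empty peaks. Base-holding peaks hold U87-R called bases by definition, and those of VEGFA held 55, 45 and 58 in the U87-R libraries. They held 34 and 36 in the STM2457 libraries and 50, 53 and 57 in the U87 libraries. Fewer bases in the empty peaks follow from that choice wherever bases recur, so these counts are description only. Of the 84 empty VEGFA peaks 2 and 1 held a base in the STM2457 libraries and 1, 1 and 1 in the U87 libraries. None of the 65 empty TNC peaks held one in any of these libraries.

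Among the highest shares in genes with at least 10 peaks were those of COL6A2 (25 of 30), a second chain of collagen VI, ACTG1 (15 of 18), cytoplasmic gamma actin, RTN4 (14 of 17), a shaper of the endoplasmic reticulum, and COL7A1 (13 of 16), the collagen of anchoring fibrils. Median lengths of their empty peaks were 3 to 8.5 bases. The overlap with STM2457 peaks spanned the whole range, with 25 of 25 empty peaks in COL6A2, 12 of 13 in COL7A1, 8 of 14 in RTN4 and 0 of 15 in ACTG1. Base-holding peaks overlapped one in 4 of 5 cases in COL6A2, 2 of 3 in COL7A1 and 1 of 3 in RTN4. All 15 of ACTG1 overlapped a U87 peak. In ACTG1 the 3 base-holding peaks did not overlap an STM2457 peak either, although they held 4 called bases in each STM2457 library.

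The highest peak scores belonged to very short tiles. A pair of touching 7-base empty peaks on chromosome 9, 11825093 to 11825099 and 11825100 to 11825106, in no assigned gene, had a score of 8.76, the highest of the list, which base-holding peaks also reached. L1CAM, a neural adhesion molecule, had empty peaks of 9 and 4 bases with scores of 6.54 and 6.41. LZTR1, an adaptor of a ubiquitin ligase that acts on RAS proteins, had one of 5 bases with 5.94. ARRDC1-AS1, a long noncoding gene, had one of 4 bases with 5.76, and DAP3, a protein of the mitochondrial ribosome, one of 8 bases with 5.61. All of them passed in 3 of 3 U87-R libraries and overlapped both a U87 and an STM2457 peak, and no library had a called base in them.

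Gene lists differed in the share of empty peaks and in the length of those peaks. Over all genes 29.5% of peaks were empty, with a median length of 20 bases for empty and 48 for base-holding peaks. The share was 59.3% for matrix genes (401 of 676 peaks), 59.1% for actin and tubulin genes (104 of 176), 54.2% for ribosomal protein genes (32 of 59) and 54.1% for chaperones (112 of 207). Translation factors had 48.3% (98 of 203), immediate early genes 47.3% (324 of 685), histones 43.1% (22 of 51) and long noncoding RNAs 41.0% (123 of 300). Splicing factors had 39.3%, glycolysis 37.1%, the proteasome 34.8%, the m6A machinery 33.0%, cell cycle genes 30.6%, oxidative phosphorylation 6 of 20 peaks and DNA repair 24.2% (51 of 211). Genes of the mitochondrial chromosome had no U87-R peak. The median length of empty peaks was 9 bases in the matrix, actin and tubulin, and chaperone lists, against 22 bases in DNA repair and 23 in cell cycle genes.

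**Figure D4:**
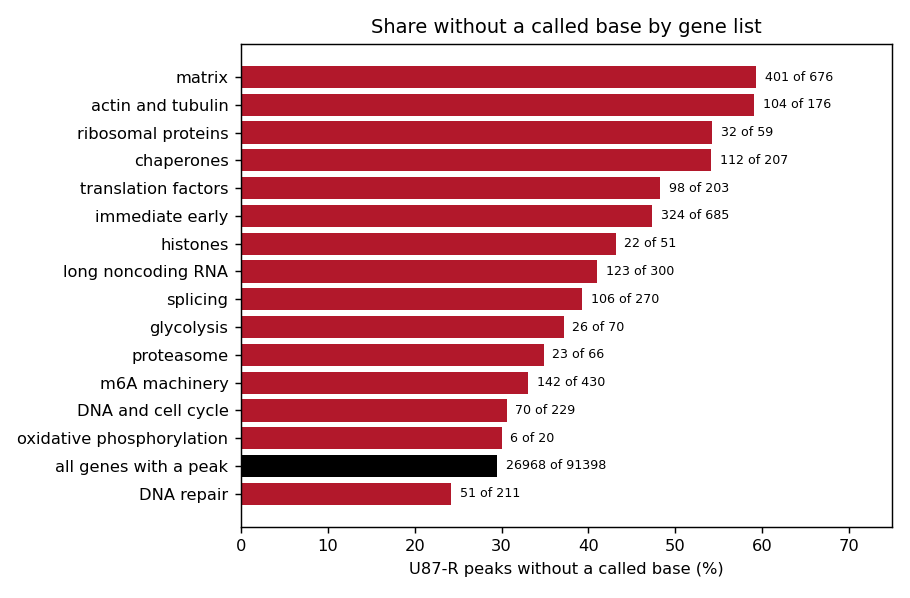
Share of U87-R peaks without a called base (%) by gene list, with the number of empty peaks and of all peaks beside each bar; the black bar is all genes with a peak (29.5%). Matrix genes are at the top with 59.3% and DNA repair at the bottom with 24.2%.

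Within the lists single genes differed widely. Among immediate early genes, whose transcripts are induced within minutes, JUN had 45 empty of 72 peaks and DUSP1, a MAP kinase phosphatase, 28 of 44. The elongation factor EEF2 had 27 of 38 and TPT1, the translationally controlled tumour protein, 13 of 23. P4HB, a protein disulfide isomerase, had 27 of 38 and the cochaperone DNAJB1 13 of 25. Among ribosomal protein genes, 0 of 8 empty peaks of RPL13 and 4 of 4 of RPL23A overlapped an STM2457 peak, and all 12 overlapped a U87 peak. Of base-holding peaks 0 of 8 in RPL13 and 1 of 1 in RPL23A overlapped an STM2457 peak. MALAT1, a nuclear long noncoding RNA, had 31 empty of 46 peaks, of which 9 overlapped an STM2457 peak, and TUG1 30 of 94, of which 24 did. Of base-holding peaks 7 of 15 in MALAT1 and 53 of 64 in TUG1 did. In the splicing list SON had 39 empty of 92 peaks and the helicase DDX17 19 of 39. The linker histone gene H1-10 had 7 of 15. SLC2A1, the glucose transporter, had 12 of 23 and the enolase ENO2 3 of 4. In the proteasome list PSMC1 had 3 of 4 and PSMB4 3 of 6, and in the oxidative phosphorylation list ATP5PO and SDHD had 1 of 1 each.

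In the m6A machinery, METTL3 itself had 6 U87-R peaks and none was empty. RBM15B, an RNA-binding subunit of the writer complex, had 22 empty of 61 peaks, and 7 of the 22 overlapped an STM2457 peak. YTHDF2, a reader that promotes decay of marked RNA, had 20 of 39, and 16 of the 20 did. Of base-holding peaks 21 of 39 in RBM15B and 18 of 19 in YTHDF2 did. Among repair genes MGMT, which reverses the guanine lesion that TMZ leaves, had 2 empty of 7 peaks, and neither overlapped a U87 or an STM2457 peak. Its base-holding peaks overlapped an STM2457 peak in 0 of 5 cases. The base-holding MGMT peaks, chosen by their U87-R bases, held 8, 8 and 5 called bases in the U87-R libraries. They held 0 in each STM2457 and U87 library. The flap endonuclease FEN1 had 14 of 31 and the mismatch repair gene MSH6 6 of 30. MKI67, the proliferation marker, had 18 of 70, MDM2, the p53 ligase, 15 of 41, and the receptor EGFR 12 of 44.

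Changes in single empty peaks were tested between STM2457 and U87 libraries as the sum of scores of called bases in a peak, on the scale log2(sum + 1), with limma across all 43059 U87-R peaks that reached a sum of 10 in at least 2 libraries. Of these peaks 5.8% were higher and 48.8% lower with STM2457 (Benjamini-Hochberg adjusted p under 0.05), with a median change of -1.95. Only 239 of the 28361 empty peaks reached the filter. Among them 83 were called higher and 38 lower, in 70 and 37 genes. These counts cannot be set against the background as support: 87 of the 239 reached the filter through both STM2457 libraries with no U87 library at the minimum, and 87 through U87 libraries alone. The definition also left out peaks with a base in U87-R, from which the STM2457 cells derive. Without either STM2457 library the filter removed 80 of the 121 called peaks and no higher call was left. With the tested peaks kept, 69 were higher and 22 lower without the first STM2457 library, and 74 and 25 without the second.

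The 83 higher peaks had a median length of 19 bases, and in 66 of them the U87 libraries had called no base at all. An STM2457 peak overlapped 71 of them and a U87 peak 79. A U87-R called base lay within 10 bases of 40 of the 83. The median over the 83 was 1 called base per STM2457 library. The 38 lower peaks had a median length of 29.5 bases, and in 33 the STM2457 libraries had called none. An STM2457 peak overlapped 14 of them and a U87 peak all 38, and a U87-R called base lay within 10 bases of 21. The median over the 38 was 1 called base per U87 library.

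Where 1 group has no called base, the size of a change on this scale is set by the pseudocount, and the peak reached the filter through the other group alone, so the sums are given without fold change or p. At the peak that follows, the change was 12.1 with a pseudocount of 0.1, 8.75 with 1 and 5.46 with 10. By rank the largest change was at a 4-base empty peak on chromosome 11, 61967558 to 61967561 (minus strand), within the span of FTH1, the heavy chain of the iron store ferritin. It was given to no gene because no strand could be given to FTH1, and the span of LOC399900 covers it as well. Its summed scores were 425 and 433 in the STM2457 libraries and 0 in each U87 library, so the groups did not overlap. The touching 3-base empty peak, 61967562 to 61967564, had 103 and 104 in the STM2457 libraries and 0 in each U87 library. Beyond 2 further empty tiles without any base, the base-holding tile of the same run, 61967579 to 61967631, had sums of 2035 and 2183 in the STM2457 libraries, 346, 454 and 448 in the U87-R libraries and 377, 329 and 438 in the U87 libraries. It held 19 and 20 called bases in the STM2457 libraries, 5, 5 and 5 in U87-R and 4, 4 and 5 in U87.

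The next upward by rank were single peaks in 5 genes. SLC7A5, the large neutral amino acid transporter, had a 6-base empty peak on chromosome 16 (87831163 to 87831168) with sums of 99.2 and 147 in the STM2457 libraries and 0 in each U87 library. NFE2L1 had a 9-base peak on chromosome 17 (48050828 to 48050836) with 107 and 111 in the STM2457 libraries and 0 in each U87 library. TUBB6, a beta tubulin, had a 6-base peak on chromosome 18 (12326332 to 12326337) with 107 and 109 in the STM2457 libraries and 0 in each U87 library. In all 3 peaks each STM2457 library had 1 called base, so each sum is the score of 1 base, and the U87 libraries had none.

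PLOD1, a lysyl hydroxylase of collagen, had a 19-base peak with 91.4 and 97.4 in the STM2457 libraries and 0 in each U87 library. ITGA5, the fibronectin receptor chain, had a 23-base peak with 66.6 and 108 in the STM2457 libraries and 0 in each U87 library. The deposited score of these tiles in U87-R was 3.88 for PLOD1 and 4.22 for ITGA5, and both had passed in all 3 U87-R libraries. Here too each STM2457 library had 1 called base in each peak. An unlisted base has no measured value, so a sum of 0 says that no base was called there.

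The largest change downward was in VEGFA, at a 19-base empty peak on chromosome 6 (43785327 to 43785345). Its sums were 0 in each STM2457 library and 66.6, 62.2 and 43.9 in the U87 libraries. The nearest U87-R called base lay 1 base downstream of this tile. The glycolytic enzyme ENO1 had a 25-base peak, 51 bases from the annotated 5′ end, with 0 in each STM2457 library and 28.7, 36.3 and 18.5 in the U87 libraries. ID1, an inhibitor of basic helix-loop-helix factors, had 0 in each STM2457 library and 11.1, 36.2 and 21.7 in the U87 libraries. FMN1, a formin, had 0 in each STM2457 library and 17.6, 21.4 and 21.5 in the U87 libraries at a 104-base peak. ZCCHC8, a subunit of the nuclear exosome targeting complex, had 0 in each STM2457 library and 19.5, 14.0 and 19.2 in the U87 libraries at a 33-base peak. The peaks of FMN1 and ZCCHC8 did not overlap an STM2457 peak, and those of VEGFA, ENO1 and ID1 did.

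**Figure D5:**
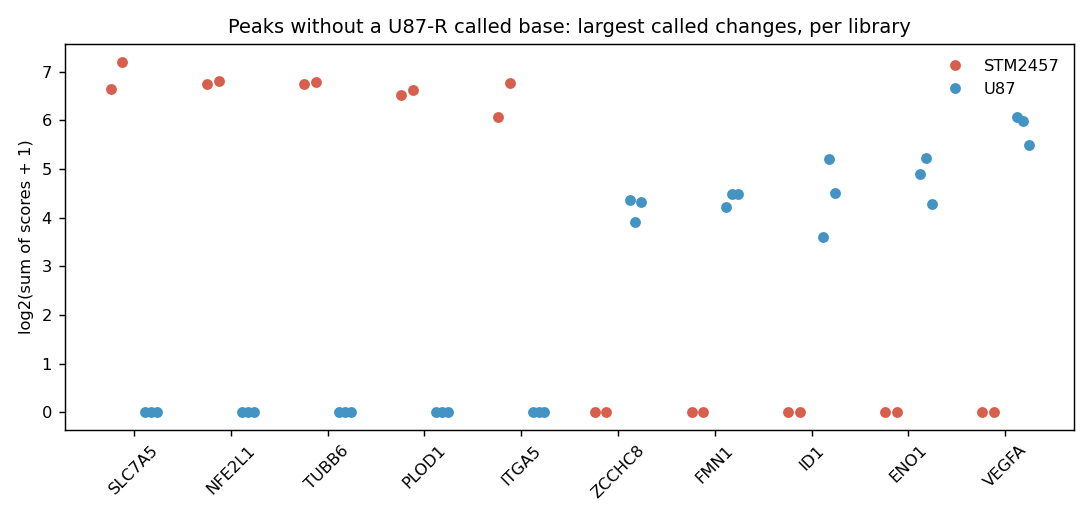
Summed score per library, as log2(sum of scores + 1), at the empty peaks with the 5 largest called changes in each direction among those given to 1 gene, in STM2457 and U87 libraries (points are libraries, n = 2 and n = 3). At the 5 peaks on the left all U87 libraries are at 0, and at the 5 on the right both STM2457 libraries are at 0.

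VEGFA and SPP1, which codes for the secreted phosphoprotein osteopontin, had called empty peaks in both directions; they are named because they stood out once values were seen. A second VEGFA peak of 6 bases (43770815 to 43770820) had 36.7 and 34.3 in the STM2457 libraries and 0 in each U87 library. In SPP1 the 8-base peak on chromosome 4 from 87982642 had 20.7 and 27.2 in the STM2457 libraries and 0 in each U87 library. The SPP1 peak of 25 bases from 87982569 had 0 in each STM2457 library and 10.6, 12.7 and 12.0 in the U87 libraries. Among these called tiles, those with called bases in STM2457 libraries were others than those with called bases in U87 libraries. That follows from naming genes with calls in both directions, and each tile reached the filter through 1 group alone. It does not describe the genes as a whole: base-holding VEGFA peaks held 34 and 36 called bases in the STM2457 libraries and 50, 53 and 57 in the U87 libraries.

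By list, called empty peaks were few. Genes in this paragraph outside those above are named because of their calls, after their values were seen. Over all tested U87-R peaks 5.8% were higher and 48.8% lower, and since empty peaks mostly reached the filter through 1 group, the counts below describe these peaks and support nothing about a list. Of 6 tested in matrix genes 5 were higher and none lower, among them peaks of ITGA5, COL6A1 (both tested) and COL6A3. Of 5 tested in chaperone genes 3 were higher, in HSPA5, P4HB and PDIA4 of the endoplasmic reticulum, and 1 was lower, in CCT5, a subunit of the cytosolic chaperonin. The HSPA5 peak had sums of 75.8 and 75.9 in the STM2457 libraries and 0 in each U87 library, and the CCT5 peak 0 in each STM2457 library and 14.0, 14.9 and 14.0 in the U87 libraries. Both tested peaks of actin and tubulin genes, both in TUBB6, were higher, as were both of translation factors, both in EIF4G1. Of 2 tested in immediate early genes 1 was higher, in SERTAD1, and the only one tested in glycolysis, that of ENO1, was lower. No called empty peak lay in DNA repair, histone, ribosomal protein, m6A machinery, long noncoding RNA, splicing, proteasome, cell cycle or oxidative phosphorylation genes, where at most 1 per list had reached the filter.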

How the data were processed

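The members and the gene lists were chosen with earlier results of these data known. Per the labels' protocols, fragments of polyA RNA were pulled down for m6A and crosslinked. The submitters' processing notes name STAR, cutadapt and UMI-tools and build hg38; the sources used here give no caller, version or setting. For each eCLIP library the authors deposited its called bases with a score, the smallest of 4 scores listed beside it, and per group a list of reproducible peaks and one of reproducible sites with the fraction of libraries that passed and a score. Depth is unknown, since the deposited score lists hold no counts. No value column of another sample was used.

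From these, peaks were marked empty where no U87-R base lay inside on the same strand. Overlap meant at least 1 base. Genes came from RefSeq spans on GRCh38.p14 without exons. A strand came from the RefSeq start windows for 27304 of 38382 genes, and for 1782 others from at least 5 called bases with at least 80% on 1 strand, a rule that matched RefSeq for 97.5% of the 8320 genes with both. The other 9296 genes had no strand. Overlapping genes could not always be told apart, and a gene name is a position in a span, with exons not known. RefSeq sequences covered peaks wholly inside a start window, with windows on chromosome 8 left out. A missing entry was not looked for elsewhere.

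Sums of scores were tested with limma 3.58.1 (R 4.3.3), a mean-variance trend, a pseudocount of 1, a minimum of 10 in 2 libraries and Benjamini-Hochberg adjustment over all tested U87-R peaks. Fold changes on the log2(sum + 1) scale understate changes of low sums. The fit was also run on simulated, normally distributed values with the same spread for every peak. These held no group of zeros, so that run does not cover peaks without a called base in 1 group. Shares per library were compared with exact permutation tests in Python 3.11.15 (scipy 1.17.1). Alternatives covered the score of a base, the distance to it, overlap, pseudocount, filter, scaling, replicate block and leaving out libraries. Named genes were the 10 with the most empty peaks, the 5 with the highest share among genes with 10 peaks or more, those of the 5 highest-scoring and 5 longest empty peaks, those of up to 5 called peaks per direction, up to 2 per list, and METTL3, MGMT and EGFR; exceptions are marked, and some genes under this rule are not reported here. Input libraries (8 of 16 samples) were not analysed here.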

Additional observations from a re-analysis of the deposited data

How the results depend on the processing

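The number of empty peaks was 45932 when only bases with a score of at least 10 counted, 10885 and 1356 when a base within 10 or 50 bases counted, 2409 when touching peaks were joined, 13174 in the upper 50% of peak scores, and 30609 to 32735 when 1 U87-R library was left out. The difference in the share with a base, STM2457 minus U87, turned to 0.0435 points with bases scoring at least 10 (exact permutation p = 0.9), was -16.9 points when a base within 10 bases of the peak counted, and ran from -2.83 to -2.15 points when 1 library was left out. Overlap with STM2457 peaks was 60.2% when 50% of the bases had to be covered and 35.7% with STM2457 peaks in the upper 50% of scores. Overlap with U87 peaks was 88.8% and 51.2% under these settings, and 84.3% with peaks found in all U87 libraries.

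Without a filter 156 empty peaks were called higher and 59 lower by limma; with a pseudocount of 10, 22 were lower. When 1 library was left out the calls ran from 0 to 89 higher and from 17 to 36 lower. Keeping the tested peaks, an alternative chosen after seeing the data, gave 22 and 25 lower without the first and the second STM2457 library. Scaling to library totals gave a median change of -1.52 over all peaks, against -1.95 without scaling, and 86 higher and 37 lower empty peaks.

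Same-numbered libraries did not deviate together (correlations of -0.006 and -0.014). Deviations of the 2 STM2457 libraries from their mean mirror each other, so this check cannot decide whether the numbers pair libraries. With the replicate number as a block, 83 empty peaks were higher and 32 lower, with 98 of the 121 calls kept, and the share difference was -2.15 points. The difference between empty and base-holding peaks kept its direction in each alternative run, from -66.6 to -59.0 points when 1 library was left out. That direction follows from the choice by called bases wherever bases recur, so it is no support. The 15 called peaks named under the rule or for SPP1 and VEGFA kept their call in each fit that held both STM2457 libraries. All 15 had no called base in any library of 1 group. Leaving out a library of that group could not alter their change, so the kept calls are no support. Without either STM2457 library 9 of the 15 were not tested. Of all 121 called empty peaks, 105 to 120 kept their call under the other pseudocounts, filter and scaling, and 91 and 98 without the first and the second STM2457 library with tested peaks kept.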
